A study of Mus musculus with 6 samples.

Results

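The liver and gut microRNAs miR-122, miR-192 and miR-194 were followed in mouse heart muscle between 6 d and 0 h after death. All rows named for these miRNAs were taken, both arms and all copies, which gave 7 of the 984 mature miRNAs measured. The 7 rows were mmu-miR-122-5p, mmu-miR-122-3p, mmu-miR-192-5p, mmu-miR-192-3p, mmu-miR-194-5p, mmu-miR-194-1-3p and mmu-miR-194-2-3p, written without the species prefix from here on. Myocardial tissue was sampled at a post-mortem interval (the time since death) of 6 d in 3 libraries and of 0 h in 3 libraries. The series is titled as an analysis of miRNAs for estimating that interval. The labels used here name no strain, age or treatment, and do not say whether the libraries of a group came from separate mice, so the p-values measure the spread between these libraries only, which may be technical.

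A mature miRNA is cut from a hairpin precursor, whose upstream arm gives the 5p and whose downstream arm the 3p product, and it binds mRNAs mainly through its seed, bases 2 to 8. miR-122-5p is the dominant miRNA of hepatocytes, where it acts on lipid metabolism. It is also a widely used blood marker of liver injury. miR-192-5p and miR-194-5p are abundant in liver, intestine and kidney, are made from shared primary transcripts, and are under the control of hepatocyte nuclear factors in liver and gut. None of the miRNAs is regarded as a heart muscle marker.

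The RefSeq table (GRCm38.p6) held sequences for 5 of the 7 rows, matched by name. The mature sequences are shown because they decide which rows share a seed and which hairpin a read can be traced to, with the seed in capitals. miR-215-5p, from the same family but not among the 7 rows, is added for comparison.
miR-192-5p: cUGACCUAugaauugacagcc
miR-215-5p: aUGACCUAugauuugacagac
miR-192-3p: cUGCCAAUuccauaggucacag
miR-194-5p: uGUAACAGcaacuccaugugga
miR-194-1-3p: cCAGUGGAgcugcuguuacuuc
miR-194-2-3p: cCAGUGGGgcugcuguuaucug

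miR-192-5p and miR-215-5p had the same seed, UGACCUA, and among the 851 rows of the files with a RefSeq sequence no other row had it. They differed at 3 of 21 positions, counted from 1 at the 5′ end, by C1A, A12U and C20A, with the base of miR-192-5p first. The seed of miR-194-5p, GUAACAG, belonged to no other of these 851 rows. miR-194-1-3p and miR-194-2-3p were identical at 18 of 22 positions and differed by A8G, C19U, U20C and C22G, the first of which lies in the seed.

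The hairpins show how the members are linked in the genome, with the mature arms in capitals. The build behind the deposited values is not given in the sources used here, and the positions are those of the RefSeq table.
Mir194-2: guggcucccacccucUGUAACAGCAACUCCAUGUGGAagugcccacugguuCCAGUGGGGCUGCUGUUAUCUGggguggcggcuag
Mir192: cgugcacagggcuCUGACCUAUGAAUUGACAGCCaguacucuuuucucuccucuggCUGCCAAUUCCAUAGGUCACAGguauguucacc
Mir194-1: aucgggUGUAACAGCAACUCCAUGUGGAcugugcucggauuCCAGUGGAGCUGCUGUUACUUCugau
Mir215: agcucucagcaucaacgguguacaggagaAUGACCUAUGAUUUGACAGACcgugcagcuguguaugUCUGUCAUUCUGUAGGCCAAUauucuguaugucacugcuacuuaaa

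Mir194-2 (chr19:6264643-6264728, plus strand) lies 115 bases upstream of Mir192 (chr19:6264844-6264932, plus strand). Neither overlaps another annotated gene in GENCODE M21. Mir194-1 (chr1:185313319-185313385, plus strand) lies 195 bases upstream of Mir215 (chr1:185313581-185313692, plus strand). Both sit inside the noncoding gene 2010103J01Rik of the same strand, Mir194-1 in an intron and Mir215 in an exon, and opposite an intron of Iars2, the mitochondrial isoleucyl-tRNA synthetase gene. Both miR-194 hairpins give the same miR-194-5p, so its reads cannot be assigned to a locus, while the 3p arms differ and can.

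The deposited values gave 617069 to 1889594 miRNA reads in the 6 d libraries and 4468547 to 7906577 in the 0 h libraries. Levels are given as normalised CPM, reads scaled to 1000000 per library and by a further library factor. They rank rows within a library and follow a row between libraries, but read numbers of different miRNAs also carry ligation preferences of the library kit. A value of 3 reads, the floor used here, corresponds to 1.91 to 3.97 CPM at 6 d and to 0.463 to 0.730 CPM at 0 h. The heart markers fixed for the check of the tissue (miR-1a-3p, miR-133a-3p, miR-208a-3p, miR-208b-3p and miR-499-5p) were all present, and miR-1a-3p ranked 1 in each of the 6 libraries.

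Of the 7 rows, 5 had a value of at least 1 CPM in at least 3 libraries and were tested among the 470 miRNAs that passed this filter. Of these 5, miR-122-5p and miR-194-5p were higher at 6 d past a limma adjusted p of 0.05, and 0 were lower. Over all 470 tested miRNAs, 75 were higher (16%) and 103 lower (21.9%), 37.9% in all. With 5 rows tested nothing more is read from that count. The tested miRNAs had a median log2 fold change of -0.33 on this scale, and of 0.02 when libraries were scaled by their totals alone, so fold changes are also given relative to the median.

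miR-122-5p was by far the more abundant of the 2 miRNAs that were higher at 6 d. It had 2086, 23460 and 16716 normalised CPM in 6 d replicates 1, 2 and 3, against 702, 668 and 1406 CPM in 0 h replicates 1, 2 and 3. All 6 d libraries lay above all 0 h libraries, and 6 d replicate 1 stood much nearer to the 0 h libraries than the other 6 d libraries did. The groups were apart in this way for 2 of the 5 tested rows, both with 6 d above 0 h. Over all tested miRNAs, 19.8% had every 6 d library above every 0 h library and 30.9% the opposite, 50.6% in all. The means were 14087 ± 10927 CPM at 6 d and 925 ± 416 CPM at 0 h (SD, n = 3 each).

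The log2 fold change of miR-122-5p was 3.42 ± 0.80 (SE, n = 3 each, limma adjusted p = 0.0095), with a 95% interval of 1.63 to 5.22. It was 3.75 above the median of all tested miRNAs and the 14th highest of 470. Without 6 d replicate 1 it was 4.51 ± 0.39 (limma adjusted p = 9.1e-05), while without 6 d replicate 2 it was 2.76 (limma adjusted p = 0.036). The 6 d mean was 20088 CPM without replicate 1 and 9401 CPM without replicate 2. The direction and the call held in every setting run, but the size of the rise rested on which 6 d libraries were included.

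As a share of all miRNA reads, miR-122-5p made up 0.173% in 6 d replicate 1 (95% Wilson interval 0.168% to 0.179%), 2.53% in replicate 2 (2.497% to 2.570%) and 3.002% in replicate 3 (2.96% to 3.04%). At 0 h the shares were 0.0645% in replicate 1 (0.0622% to 0.0669%), 0.0508% in replicate 2 (0.0492% to 0.0524%) and 0.125% in replicate 3 (0.122% to 0.127%). These intervals cover counting error only and are far narrower than the differences between libraries. In rank among the 984 rows, miR-122-5p stood at 30, 9 and 8 in the 6 d libraries and at 60, 61 and 44 in the 0 h libraries.

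The unevenness at 6 d was large even among these libraries. The highest 6 d library had 11.2 times the lowest for miR-122-5p, against 2.10 times at 0 h. On the log2 scale the SD of miR-122-5p over the 6 d libraries was 1.89, the 9th largest of the 470 tested miRNAs, whose median SD was 0.59. miR-192-5p (SD 0.77, 152nd) and miR-194-5p (SD 0.45, 314th) were not in that range at 6 d.

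The other arm, miR-122-3p, was almost unread. It had 0, 0 and 1 reads in 6 d replicates 1, 2 and 3 and 0 reads in each 0 h library, where a count of 0 allows up to 0.730, 0.499 and 0.463 CPM in replicates 1, 2 and 3. In total miR-122-5p had 39527 reads at 6 d and 16001 at 0 h. No fold change is given for miR-122-3p because both groups lay at or under the floor of 3 reads.

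**Figure D1:**
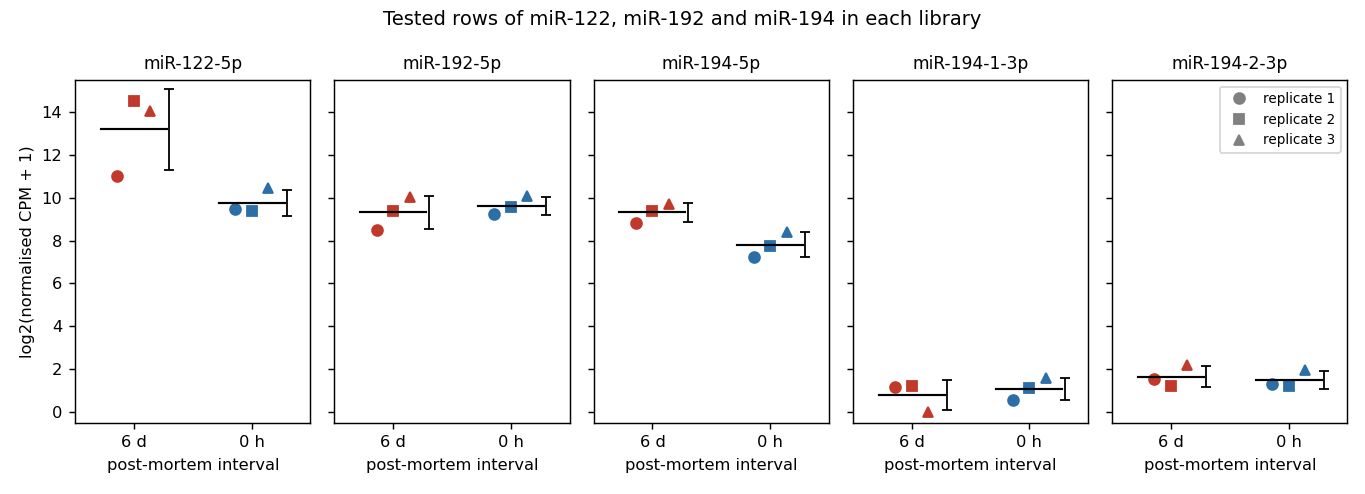
log2(normalised CPM + 1) of the 5 tested rows in each library, with 6 d left of 0 h in each panel; points are libraries (circle, square and triangle for replicates 1, 2 and 3), horizontal lines are means and bars are SD (n = 3 each). The 6 d libraries lie above the 0 h libraries for miR-122-5p and miR-194-5p and overlap them for the other rows, and 6 d replicate 1 is the low point of miR-122-5p at 6 d.

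miR-194-5p, which in human cells is induced as intestinal epithelium differentiates, was the other member that rose. It had 454, 675 and 837 normalised CPM in 6 d replicates 1, 2 and 3, against 151, 211 and 342 CPM in 0 h replicates 1, 2 and 3. The groups did not overlap. The means were 656 ± 192.1 CPM at 6 d and 235 ± 97.4 CPM at 0 h (SD, n = 3 each). The log2 fold change was 1.51 ± 0.39 (SE, n = 3 each, limma adjusted p = 0.014), with a 95% interval of 0.63 to 2.40, and lay 1.84 above the median of all tested miRNAs.

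The call of miR-194-5p was less secure than its direction. Without 0 h replicate 1 the log2 fold change was 1.24 and not past the threshold (limma adjusted p = 0.071). In every other setting run it was called, edgeR included (log2 fold change 1.64, edgeR adjusted p = 0.012). By edgeR 3 of the 7 rows passed the filter and 2 were higher, against 22.3% of all miRNAs that edgeR tested (43% called in either direction).

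miR-192-5p, a p53-responsive miRNA in human cells and the genomic neighbour of miR-194-2, did not pass the test. It had 362, 669 and 1049 normalised CPM in 6 d replicates 1, 2 and 3, against 606, 750 and 1079 CPM in 0 h replicates 1, 2 and 3. The groups overlapped, with the lowest value in 6 d replicate 1. The means were 693 ± 344 CPM at 6 d and 812 ± 243 CPM at 0 h (SD, n = 3 each). The log2 fold change was -0.32 ± 0.43 (SE, n = 3 each, limma adjusted p = 0.60), with a 95% interval of -1.28 to 0.64. That interval runs from 0.412-fold to 1.56-fold and leaves a moderate change in either direction undetectable here. Its value relative to the median of all tested miRNAs was 0.01.

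miR-192-3p had 0 reads in each 6 d library, and 0, 1 and 2 reads in 0 h replicates 1, 2 and 3. A count of 0 allows up to 1.91, 3.97 and 2.71 CPM in 6 d replicates 1, 2 and 3. Both groups lay at or under the floor, and no fold change is given. For miR-122 and miR-192 alike, the reads came almost wholly from the 5p arm at both intervals.

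**Figure D2:**
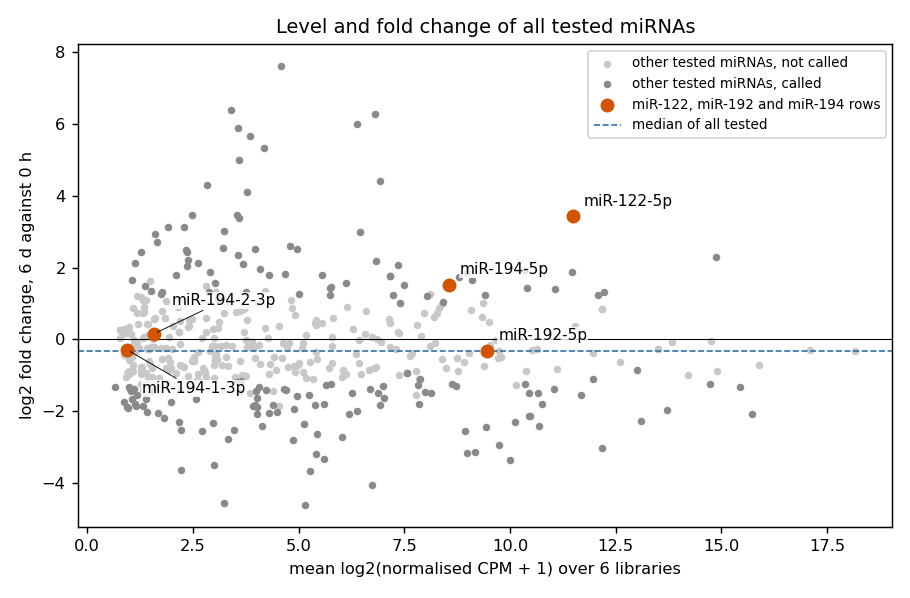
Log2 fold change of 6 d against 0 h (y axis) against the mean log2(normalised CPM + 1) over the 6 libraries (x axis) for the 470 tested miRNAs, with the 5 tested rows in orange, called miRNAs in dark grey and the median of all tested as a dashed line. miR-122-5p at 3.42 and miR-194-5p at 1.51 lie above the median, and miR-192-5p at -0.32 lies on it.

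The 3p arms of miR-194 were sparse, and they are the only reads that separate the loci. miR-194-1-3p, from chromosome 1, had 2, 1 and 0 reads in 6 d replicates 1, 2 and 3, against 2, 7 and 13 reads in 0 h replicates 1, 2 and 3. Pooled over libraries, its level at 6 d was 0.659 times that at 0 h (exact 95% interval 0.126 to 2.19, counting error alone). Its 6 d values, 1.27, 1.32 and 0 CPM, were all under the floor of their libraries, and its 0 h values were 0.487, 1.16 and 2.01 CPM. By limma the log2 fold change was -0.29 (adjusted p = 0.67).

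miR-194-2-3p, from chromosome 19, had 3, 1 and 4 reads in 6 d replicates 1, 2 and 3, against 6, 8 and 19 reads in 0 h replicates 1, 2 and 3. In normalised CPM this was 1.91, 1.32 and 3.61 at 6 d and 1.46, 1.33 and 2.93 at 0 h, so the groups overlapped. Pooled over libraries, its level at 6 d was 1.17 times that at 0 h (exact 95% interval 0.467 to 2.59, counting error alone). The limma log2 fold change was 0.16 (adjusted p = 0.80). The upper bounds of both 3p intervals, 2.19 and 2.59, lie under the 2.86-fold of miR-194-5p but within its own 95% interval of 1.55-fold to 5.27-fold. With so few reads the 3p arms do not show which locus the additional miR-194-5p came from.

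The ratio of the arms is free of the library's scaling factor, though not of its depth where reads are few and 1 is added. Over miR-194-5p and the sum of both 3p arms, with 1 read added to each, there were 119, 170 and 186 reads of 5p per read of 3p in 6 d replicates 1, 2 and 3, against 69.1, 79.4 and 67.1 in 0 h replicates 1, 2 and 3. The 6 d ratios were all above the 0 h ratios. The log2 ratio was higher at 6 d by 1.12 ± 0.43 (SE, n = 3 each), which did not pass the threshold over the 130 precursor names tested (limma adjusted p = 0.073, unadjusted p = 0.032). Of those precursor names 36.9% were called. The value rests on 11 reads of the 3p arms at 6 d and 55 at 0 h, and was 1.67 with all libraries thinned to the same depth (limma adjusted p = 0.068).

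The proportions of the abundant members to each other were compared as well. They come from the same reads as the fold changes above and are not separate evidence. Ratios within a library are free of its scaling factor, and 3 of them were tested by exact permutation, two-sided. The lowest p that 3 libraries on each side allow is 0.1. miR-192-5p to miR-194-5p (the reads of miR-194-5p from both loci together) stood at 0.796, 0.990 and 1.25 reads per read in 6 d replicates 1, 2 and 3, against 4.01, 3.55 and 3.16 in 0 h replicates 1, 2 and 3. The groups were far apart, with miR-192-5p in clear excess at 0 h and level with miR-194-5p at 6 d. The log2 ratio was -0.01 ± 0.33 at 6 d and 1.83 ± 0.17 at 0 h (SD, n = 3 each), a difference of -1.84 (exact permutation p = 0.1, adjusted over the 3 ratios 0.15).

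miR-122-5p to miR-192-5p stood at 5.77, 35.1 and 15.9 reads per read in 6 d replicates 1, 2 and 3, against 1.16, 0.891 and 1.30 in 0 h replicates 1, 2 and 3. These liver-enriched miRNAs were near parity in each 0 h library, and miR-122-5p was in excess in each 6 d library. The log2 ratio was 3.89 ± 1.31 at 6 d and 0.14 ± 0.28 at 0 h (SD, n = 3 each), a difference of 3.74 (exact permutation p = 0.1, adjusted 0.15).

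miR-122-5p to miR-194-5p stood at 4.59, 34.8 and 20.0 reads per read in 6 d replicates 1, 2 and 3, against 4.64, 3.16 and 4.11 in 0 h replicates 1, 2 and 3. The ratio of 6 d replicate 1 lay among those of the 0 h libraries, so the groups overlapped. The difference of the log2 ratios was 1.91 (exact permutation p = 0.2, adjusted 0.2). Without 6 d replicate 1 this difference was 2.75, and without 6 d replicate 2 it was 1.29.

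**Figure D3:**
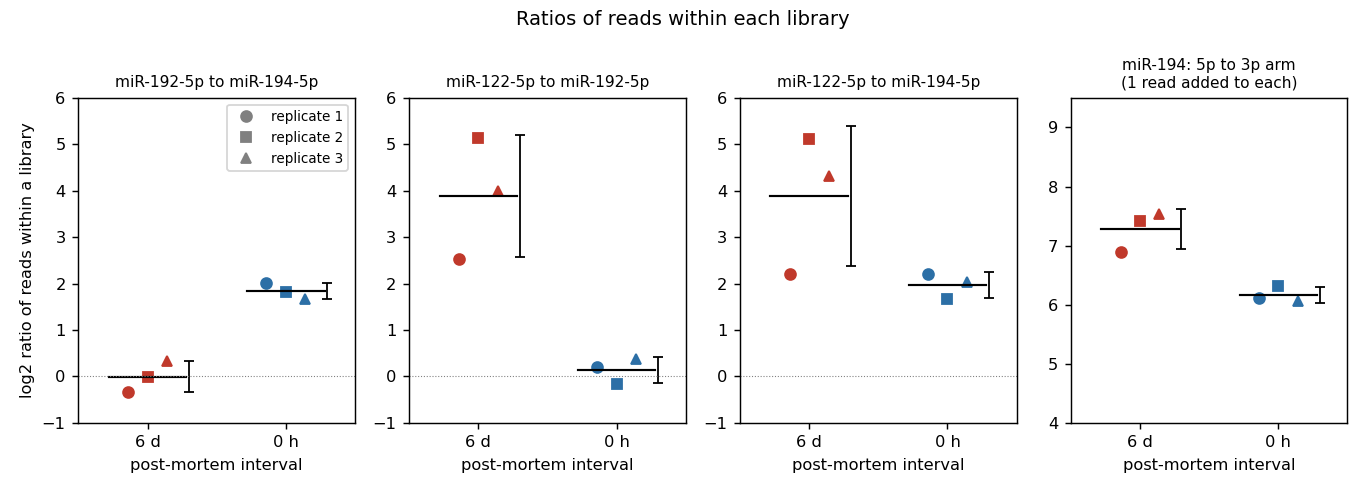
Log2 ratios of reads within each library for miR-192-5p to miR-194-5p, miR-122-5p to miR-192-5p, miR-122-5p to miR-194-5p and the 5p to 3p arms of miR-194, with 6 d left of 0 h; points are libraries, lines are means and bars are SD (n = 3 each). The ratio of miR-192-5p to miR-194-5p averages -0.01 at 6 d and 1.83 at 0 h, and the ratio of miR-122-5p to miR-194-5p in 6 d replicate 1 lies among the 0 h libraries.

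A list of 13 other miRNAs known from liver, gut and islets was set beside the members, of which 12 had a row and 8 were tested. By limma 1 was higher, miR-375-3p, which is best known from pancreatic islets and gut endocrine cells, and 0 were lower, where 16% of all tested miRNAs were higher and 21.9% lower, so nothing particular to the list is read from the count. The median log2 fold change of the 8 was -0.52, beside -0.33 for all tested miRNAs. By edgeR 1 of 7 was higher and 1 was lower, beside 22.3% and 20.7% of all miRNAs that edgeR tested.

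miR-375-3p had 22.9, 19.9 and 37.9 CPM in 6 d replicates 1, 2 and 3, against 2.19, 1.66 and 3.40 CPM in 0 h replicates 1, 2 and 3. Its log2 fold change was 3.01 (limma adjusted p = 0.00072). miR-215-5p, the seed partner of miR-192-5p and the neighbour of miR-194-1, had 40.1, 14.6 and 32.5 CPM in 6 d replicates 1, 2 and 3, against 39.4, 73.7 and 70.7 CPM in 0 h replicates 1, 2 and 3. The groups overlapped through 0 h replicate 1. Its log2 fold change was -1.11 (limma adjusted p = 0.079). Without 6 d replicate 1 it was -1.40 (limma adjusted p = 0.042), the only setting run in which miR-215-5p was called. The log2 fold change was -0.93 by edgeR (edgeR adjusted p = 0.14) and -0.66 with library totals alone (limma adjusted p = 0.41).

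The remaining tested members of that list were not past the limma threshold. The log2 fold change was -0.30 for miR-148a-3p, an abundant hepatocyte miRNA that in these libraries averaged 131936 CPM at 6 d and 160532 CPM at 0 h. It was -0.67 for miR-148a-5p, -1.27 for miR-101a-3p, -0.37 for miR-22-3p and 0.29 for miR-483-5p. For miR-31-5p, an intestinal and skin miRNA, it was -1.86 (limma adjusted p = 0.054), and edgeR called it lower (log2 fold change -2.12, edgeR adjusted p = 0.019). miR-802-5p, a miRNA enriched in liver, had 0, 1 and 0 reads in 6 d replicates 1, 2 and 3. In 0 h replicates 1, 2 and 3 it had 0, 1 and 1 reads. All these counts were under the floor of 3 reads, which was higher in CPM at 6 d, so no change is read from them. Of the 8 tested, miR-375-3p had every 6 d library above every 0 h library (19.8% of all tested miRNAs did), and miR-148a-5p and miR-22-3p had every 6 d library below (30.9% of all did).

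Some markers of other tissues and blood also moved between the groups, and their part in the values of miR-122, miR-192 and miR-194 was not tested. In bulk tissue, fewer cells of a type and less RNA per cell cannot be told apart. The counts of these lists stand beside 16% higher and 21.9% lower among all tested miRNAs by limma, and 22.3% and 20.7% by edgeR. Of 7 epithelial miRNAs (the miR-200 family, miR-205-5p and miR-203-3p), 6 were higher at 6 d and 0 lower, all but miR-203-3p, and their summed level was 1408 to 2579 CPM at 6 d and 139 to 439 CPM at 0 h. Both miRNAs of the skeletal muscle list were higher, miR-206-3p (log2 fold change 6.27) and miR-133b-3p (2.06). Their sum was 1035 to 1858 CPM at 6 d and 86.0 to 101 CPM at 0 h. These groups did not overlap. Most of the skeletal muscle sum was miR-133b-3p at 0 h (73.2 to 92.8 CPM) and miR-206-3p at 6 d (685 to 1440 CPM).

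Of 5 erythroid rows 1 was higher, miR-451a (log2 fold change 2.30), and 0 were lower, near the share over all tested miRNAs. The other erythroid rows were not called, and their groups overlapped. Their log2 fold changes were -0.27 for miR-486a-5p and miR-486b-5p, -0.77 for miR-144-3p and 0.44 for miR-144-5p. The erythroid sum was 70315 to 114787 CPM at 6 d and 34442 to 45230 CPM at 0 h. Within it miR-451a averaged 69162 CPM at 6 d and 13526 CPM at 0 h. Of 5 leukocyte miRNAs 0 were called by limma, and edgeR called 2 higher. Their sum was 655 to 1164 CPM at 6 d and 471 to 627 CPM at 0 h, without overlap. Of 5 heart miRNAs 1 was higher, miR-133a-3p (log2 fold change 1.43), and 2 were lower, miR-208a-3p (-1.49) and miR-499-5p (-1.48). Those not called were miR-1a-3p (-0.33) and miR-208b-3p (-0.85). The heart sum was 113393 to 535915 CPM at 6 d and 256919 to 491616 CPM at 0 h. Most of it was miR-1a-3p, with 110064 to 532712 CPM at 6 d and 251639 to 487823 CPM at 0 h. The heart sum therefore does not show the fall of miR-208a-3p and miR-499-5p. The pancreatic miRNAs were near the floor, with a sum of 1.32 to 5.42 CPM at 6 d and 1.54 to 1.83 CPM at 0 h, and 0 of 1 tested was called.

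The order of the 6 d libraries depended on the scaling for miR-122-5p and for the marker sums alike. In normalised CPM miR-122-5p was lowest in 6 d replicate 1 and highest in replicate 2. The epithelial sum was 2579, 1408 and 1556 CPM in 6 d replicates 1, 2 and 3, the skeletal muscle sum was 1232, 1858 and 1035 CPM, and the erythroid sum was 86693, 114787 and 70315 CPM. As a share of all miRNA reads miR-122-5p was lowest in replicate 1 and highest in replicate 3. On that scale the erythroid sum was 7.21%, 12.4% and 12.6% in 6 d replicates 1, 2 and 3, the same order as miR-122-5p. That order rested on miR-486a-5p and miR-486b-5p, which had nearly equal reads (13865 and 13894 in 6 d replicate 3). The same reads may therefore be counted in both rows. miR-451a alone made up 5.56%, 10.3% and 8.11%, lowest in replicate 1 but highest in replicate 2. The skeletal muscle sum was 0.102%, 0.201% and 0.186%, also lowest in replicate 1, and the epithelial sum was 0.214%, 0.152% and 0.279%.

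**Figure D4:**
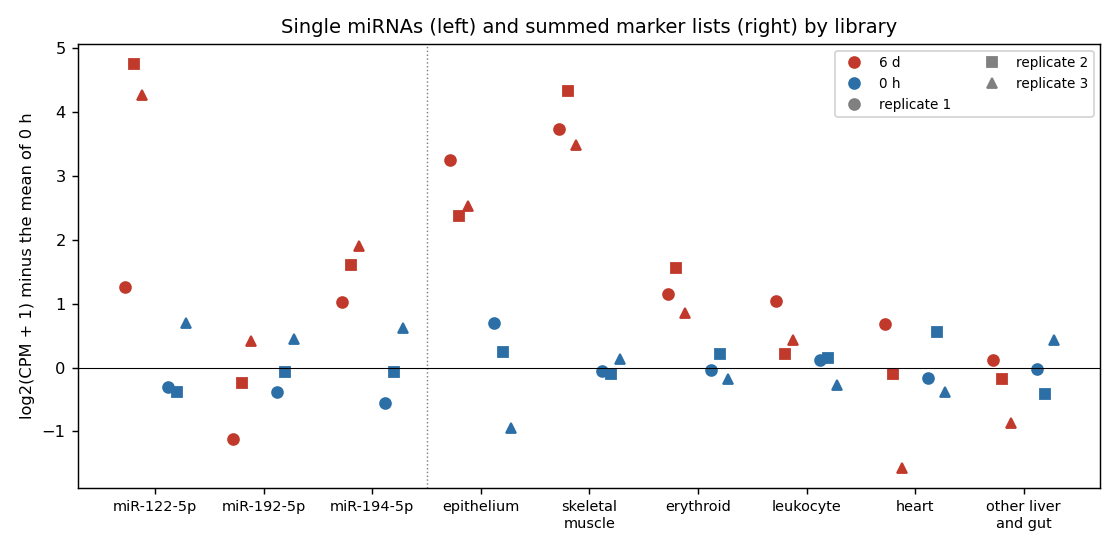
Log2(CPM + 1) minus its mean at 0 h, by library, for miR-122-5p, miR-192-5p and miR-194-5p (left of the dotted line) and for the summed levels of 6 marker lists (right of it), with 6 d in red left of 0 h in blue. The epithelial, skeletal muscle, erythroid and leukocyte sums are above the 0 h libraries in each 6 d library on this scale. The lowest 6 d library for miR-122-5p is replicate 1. In the erythroid sum only miR-451a was called, and no leukocyte miRNA was called by limma.

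The miRNAs with the most similar profiles differed for the 3 abundant members. Likeness was the root mean square difference of log2 values over the 6 libraries after each profile was centred on its own mean, among 274 other miRNAs averaging at least 10 CPM, and it is a description of these libraries. The profile of miR-122-5p was most like that of miR-6516-3p (0.44), then miR-1843a-3p (0.65) and miR-382-5p (1.04). miR-6516-3p had 5.09, 34.4 and 28.9 CPM in 6 d replicates 1, 2 and 3, against 0.487, 0.831 and 0.772 CPM in 0 h replicates 1, 2 and 3, with the same low 6 d replicate 1. Its 0 h values lay near the floor of 0.730, 0.499 and 0.463 CPM, and under it in replicate 1. The 0 h part of this likeness therefore depends on the 1 CPM added before the log2 step. miR-6516-3p also reached the mean of 10 CPM only through its 6 d values, so its place among the candidates depended on them.

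For miR-192-5p the nearest profiles were those of miR-330-5p (0.11), miR-328-3p (0.23) and miR-132-3p (0.26), none of which was called. For miR-194-5p they were those of miR-133a-3p (0.27), a muscle miRNA, miR-1843b-3p (0.35) and miR-181b-5p (0.36), each of which was higher at 6 d. Among the members, miR-194-5p ranked 10th of 274 in likeness to miR-122-5p, with a difference of 1.30, and miR-192-5p ranked 84th, with 2.02. miR-192-5p ranked 74th in likeness to miR-194-5p, with 0.94.

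**Figure D5:**
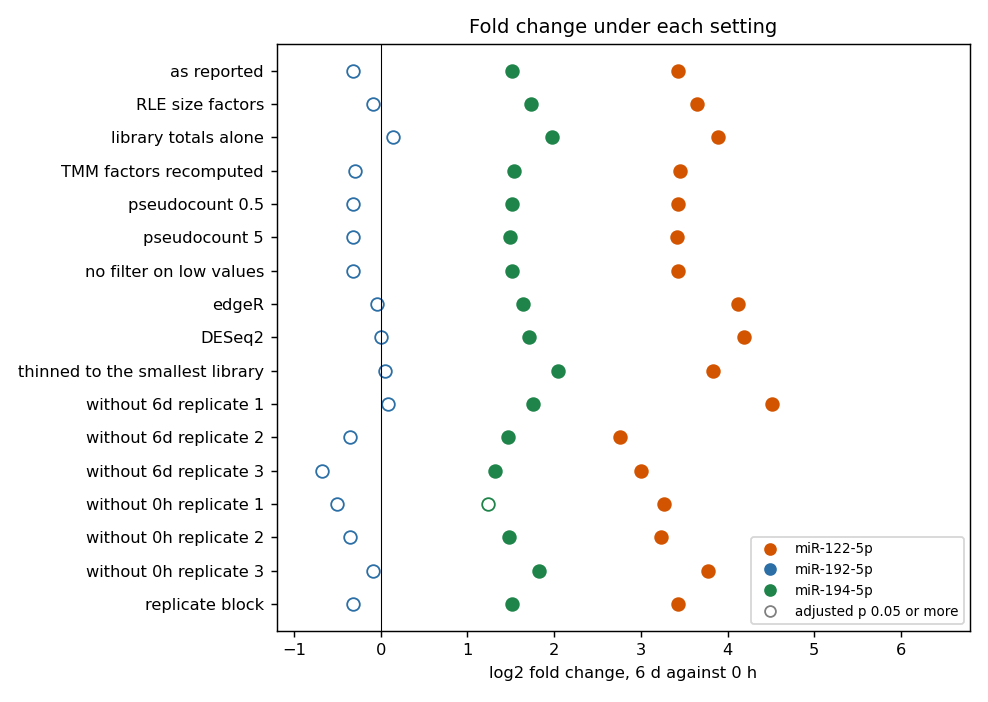
Log2 fold change of 6 d against 0 h for miR-122-5p, miR-192-5p and miR-194-5p under each scaling, test, filter and left-out library, filled where the adjusted p was under 0.05. miR-122-5p is between 2.76 and 4.51 and filled throughout, miR-194-5p is open only without 0 h replicate 1, and miR-192-5p is open throughout and lies on both sides of 0.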

How the data were processed

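Trizol RNA and NEBNext small RNA libraries were used, per the labels' protocols. STAR 2.5.3a, cutadapt 2.8, Trimmomatic 0.39 and FastQC are named, with no roles, per the submitters' processing notes. For the counting tool, its strand setting, the miRNA annotation and the build, the sources used here name nothing. Raw counts were deposited for 0 h replicate 1 only, and the other 5 deposited files hold log2 values of scaled reads plus 1. Undoing the log2 step gave whole multiples of 1 read for 2692 of 2692 testable values, within the rounding of 0.0005. These files held 3110 nonzero values, and those above 693 to 714 reads, depending on the file, could not be tested. The reads of miR-122-5p in these files, 3277 to 18525, were above that limit, so their whole numbers were not checked. The counts of 0 h replicate 1 were put on that scale by a factor (0.919) chosen so that the 6 library factors multiply to 1, a step derived here.

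Tests used limma 3.58.1 (trended, robust) on log2(normalised CPM + 1), a scale that understates changes of low miRNAs, with Benjamini-Hochberg adjustment over the 470 miRNAs with at least 1 CPM in at least 3 libraries. Library totals, RLE and TMM factors, other pseudocounts (0.5 and 5), no filter, edgeR 4.0.16 (156 of 363 miRNAs called) and DESeq2 1.42.0 on the recovered reads, thinning to 617069 reads and leaving out each library were alternatives. The limma tests of levels and of arm ratios were also run on simulated data, and the outcome is not given here. Ratios were tested by exact permutation (scipy 1.17.1). Libraries of 1 group differed far beyond sampling noise (lowest chi-square 216 per degree of freedom), so each library counted as 1 sample. Named miRNAs are all 7 rows, the tested members of the liver and gut list, examples of other lists and the 3 nearest profiles of each abundant member. miR-802-5p was named after its values were seen. Members, lists and tests were chosen with earlier results of these data known.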

Additional observations from a re-analysis of the deposited data

How the results depend on the processing

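The call and direction of miR-122-5p held in all 16 other settings, with log2 fold changes of 2.76 to 4.51 when 1 library was left out. That of miR-194-5p held in 15 of 16, with 1.24 to 1.82 when 1 library was left out and the call lost without 0 h replicate 1 (limma adjusted p = 0.071). miR-192-5p was called in none, and its log2 fold change of -0.32 changed sign to 0.14 with library totals alone, 0.0079 with DESeq2 and 0.054 after thinning, and ranged from -0.68 to 0.087 with 1 library left out. The uncalled values of miR-194-1-3p ranged from -0.55 to 0.11 and those of miR-194-2-3p from -0.12 to 0.39 with 1 library left out, each changing sign when 6 d replicate 3 was dropped. For these shifts and for the lost call of miR-194-5p the cause was not tested. Between 1 and 2 of the tested rows were called, 1 only without 0 h replicate 1. Over all miRNAs 114 (without 0 h replicate 1) to 179 were called with 1 library left out. The split of calls was 75 higher and 103 lower as reported, 83 and 40 with library totals alone, 83 and 47 after thinning, and 97 and 75 with DESeq2. The log2 arm ratio of miR-194 was 0.99 to 1.31 with 1 library left out and 0.87 (miR-194-2-3p as the 3p arm) to 1.67 (thinned) otherwise, and was called in no setting. The log2 ratio of miR-192-5p to miR-194-5p differed by -2.002 to -1.67, that of miR-122-5p to miR-192-5p by 3.12 to 4.42 and that of miR-122-5p to miR-194-5p by 1.29 to 2.75 with 1 library left out, where 3 against 2 libraries cannot reach a p under 0.2. miR-194-1-3p and miR-194-2-3p were filtered out by edgeR, miR-194-1-3p after thinning, and miR-194 where both arms had to reach 10 CPM, so these gave no value. Depth limits both 3p arms of miR-194, miR-122-3p and miR-192-3p.

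With the replicate number as a block, 195 miRNAs were called, and the log2 fold changes were 3.42 for miR-122-5p (adjusted p = 0.0017), 1.51 for miR-194-5p (0.0011) and -0.32 for miR-192-5p (0.46), with no change of call among the members. For replicates 1, 2 and 3, deviations from the group means correlated between the 6 d and 0 h library at 0.068, 0.064 and 0.27. Not every value is over 0.1, and the highest correlation of 0 h replicate 1 was with 6 d replicate 2 (0.16). The numbers are therefore treated as names.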
